A study of Mus musculus with 10 samples.

Results

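The respiratory chain genes of the nucleus were examined as a group of 93 protein-coding genes among the 43629 gene identifiers counted. Members were chosen by symbol and not by any measured value: every gene that opens with Nduf, Uqcr, Cox4, Cox5, Cox6, Cox7, Cox8 or Atp5, without Ndufa4l2, together with Sdha, Sdhb, Sdhc, Sdhd and Cycs. They comprise 36 subunits of complex I, 4 of complex II, 8 of complex III, cytochrome c, 19 of complex IV, 17 Atp5 genes of complex V and 8 complex I assembly factors of the Ndufaf series. Ndufa4 carries a complex I name and was counted with complex IV, to which it is now assigned. RNA-seq had been performed on the dorsal telencephalon, the tissue that forms the cerebral cortex, of C57BL/6 mouse embryos at E14.5. The 5 control samples had the genotype Dot1l-cKO f/+ without a Cre allele, and the 5 Dot1l-cKO samples had Dot1l-cKO f/f with 1 Cre allele. Each sample came from a different animal and controls were littermates. Dot1l encodes the methyltransferase of lysine 79 of histone H3, and its floxed allele is deleted by Cre. Controls carried 1 floxed Dot1l allele and no Cre, so that loss of Dot1l and the presence of the Cre allele cannot be told apart.

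The respiratory chain sits in the inner mitochondrial membrane. Complex I takes electrons from NADH and complex II from succinate, both hand them to ubiquinone, complex III passes them on to cytochrome c, and complex IV delivers them to oxygen. Complexes I, III and IV pump protons while doing so, and complex V, the ATP synthase, uses the returning protons to make ATP. Most subunits are encoded in the nucleus and imported, some of the central ones are encoded by mitochondrial DNA, and complex II is entirely of nuclear origin. Cortical progenitors are known to lean on glycolysis, whereas neurons depend strongly on oxidative phosphorylation. Several complex IV subunits exist as isoforms from separate genes, one used in most tissues and another restricted to muscle, lung or testis.

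Many promoters of these genes are known to hold sites for the transcription factors NRF1, GABP of the ETS family and YY1. Of the 93 members, 75 were matched by symbol to RefSeq promoters of 300 bases (250 before and 50 after the transcription start, build GRCm38.p6). The letters GCGCANGC of NRF1, searched on both strands, were found in 26 of these 75 genes or 34.7%, against 11.2% of all 27025 genes with a promoter and 20.9% of the 11926 of them tested for expression. The ETS letters CCGGAAGT were found in 5 members or 6.67%, against 4.31% of all genes and 8.12% of those tested. The YY1 letters AAGATGGC were found in 10 members or 13.3%, against 3.19% and 4.71%. NRF1 letters were present in 8 of 13 complex V genes and 3 of 3 complex II genes but in 1 of 14 complex IV genes, and YY1 letters in 7 of 32 complex I genes. A match describes the letters in the window and not the binding of a factor. To show what such promoters look like, 4 are given 5′ to 3′ with every match in capitals. Uqcr11 (chr10:80406772-80407071, minus strand), 1 of the 2 members called below, holds an ETS and an NRF1 match. Cycs (chr6:50566520-50566819, minus strand) holds an NRF1 match. Atp5j2 (chr5:145191492-145191791, minus strand) holds an NRF1 match and a YY1 match just after the start. Cox5a (chr9:57520982-57521281, plus strand), the member with the lowest log2 fold change, holds none of these letters.
Uqcr11: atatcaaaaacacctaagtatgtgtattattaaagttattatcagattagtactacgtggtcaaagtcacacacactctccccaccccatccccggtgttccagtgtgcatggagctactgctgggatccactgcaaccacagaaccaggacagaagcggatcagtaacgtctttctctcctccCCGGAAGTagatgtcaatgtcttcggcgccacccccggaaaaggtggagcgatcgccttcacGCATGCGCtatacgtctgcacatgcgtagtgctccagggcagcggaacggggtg
Cycs: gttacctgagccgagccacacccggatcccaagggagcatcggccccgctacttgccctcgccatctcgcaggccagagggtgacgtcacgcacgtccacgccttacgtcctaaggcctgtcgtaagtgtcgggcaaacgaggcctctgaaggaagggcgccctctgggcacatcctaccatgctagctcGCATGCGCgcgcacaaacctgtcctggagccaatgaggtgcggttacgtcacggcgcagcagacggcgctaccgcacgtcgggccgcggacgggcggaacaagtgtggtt
Atp5j2: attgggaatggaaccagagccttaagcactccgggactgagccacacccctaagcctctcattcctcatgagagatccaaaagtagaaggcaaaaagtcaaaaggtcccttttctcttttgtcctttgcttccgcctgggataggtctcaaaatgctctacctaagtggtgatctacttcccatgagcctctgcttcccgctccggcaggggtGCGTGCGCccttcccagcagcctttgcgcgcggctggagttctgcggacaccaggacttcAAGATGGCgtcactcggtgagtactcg
Cox5a: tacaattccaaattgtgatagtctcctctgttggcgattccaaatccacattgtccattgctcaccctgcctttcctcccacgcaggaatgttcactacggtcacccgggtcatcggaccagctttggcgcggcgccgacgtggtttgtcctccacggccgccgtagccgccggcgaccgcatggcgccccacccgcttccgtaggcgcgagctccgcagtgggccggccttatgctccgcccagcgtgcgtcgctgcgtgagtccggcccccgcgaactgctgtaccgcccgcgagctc

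Levels are given as CPM, that is, counts scaled to a common library total, and between genes only as CPM per kilobase of transcript. In controls the catalytic beta subunit of complex V, Atp5b, had the highest level per length at 600.7 ± 23.0 CPM per kb (SD, n = 5), followed by its alpha subunit Atp5a1 at 371.8 ± 12.2. Cox4i1, the common isoform of complex IV subunit IV, had 328.9 ± 9.68, and Atp5h, a subunit of the peripheral stalk of complex V, had 298.8 ± 17.5. Neighbours among these 4 did not overlap within 1 SD with this choice of length (Atp5h has 212.9 CPM per kb with its longest principal transcript), whereas the next pair, Ndufa4 at 262.8 ± 17.4 and the complex III hinge protein Uqcrh at 262.5 ± 15.4 CPM per kb, did. Median levels per length in controls were highest for complexes IV and V, at 172.8 CPM per kb over the 15 tested subunits of complex IV (164.2 over all 19 listed) and 168.3 over complex V. They were 97.3 CPM per kb for complex III, 63.9 for complex I, 62.6 for complex II and 12.4 for the assembly factors. Within complex I the highest level was that of Ndufb9, an accessory subunit of the membrane arm, at 129.1 ± 5.92 CPM per kb, and within complex II that of the iron-sulfur subunit Sdhb at 111.3 ± 5.93. Among the assembly factors it was Ndufaf2, at 30.5 ± 2.59 CPM per kb. Lengths were those of the shortest principal transcript, and 21 members list principal transcripts of unequal length, 5 of them differing more than 2-fold.

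**Figure D1:**
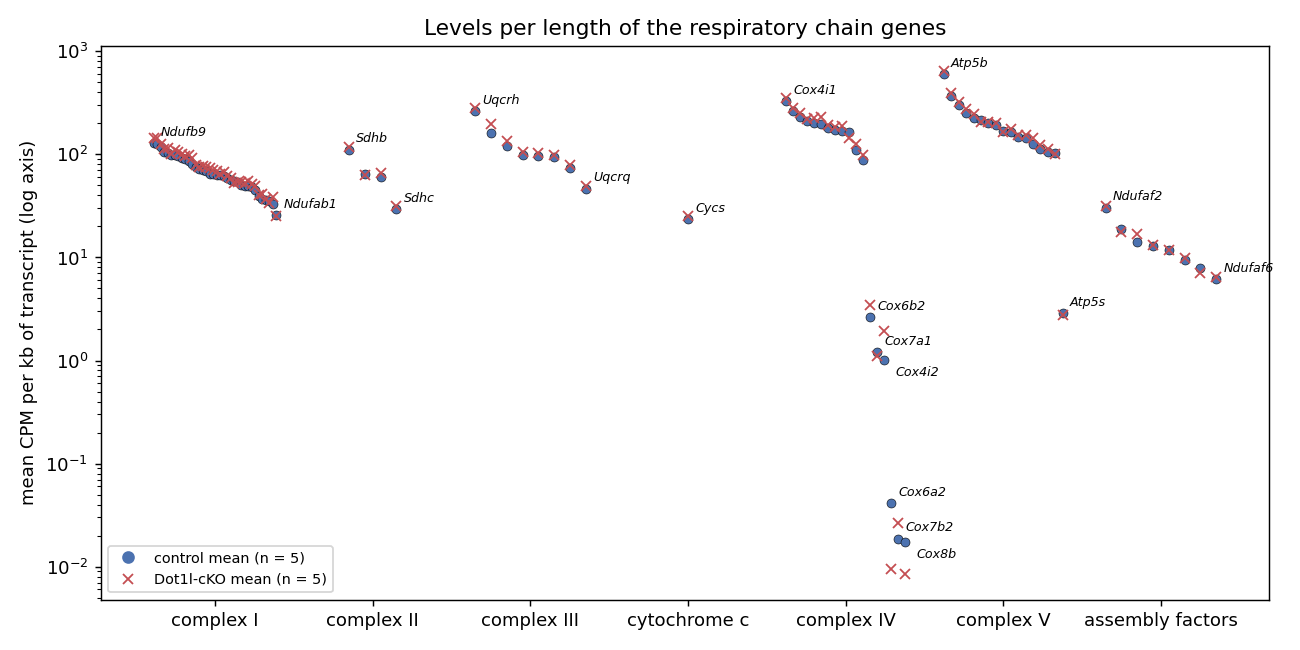
Mean CPM per kilobase of transcript (log axis) of each member in control (circles, n = 5) and Dot1l-cKO (crosses, n = 5), arranged by complex and ordered by the control level. Atp5b had the highest level at 600.7 CPM per kb in controls, and the tissue-restricted complex IV isoforms lay at or below 2.66 in controls. Cox8c had no count and is not drawn.

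Isoform choice in this tissue was strongly one-sided for complex IV. The restricted isoforms contributed 0.307% ± 0.0616 of the Cox4i level per length in controls (Cox4i2), 1.14% ± 0.396 of Cox6b (Cox6b2) and 0.693% ± 0.109 of Cox7a1 plus Cox7a2 (Cox7a1). Cox6a2 and Cox8b, the isoforms of heart and skeletal muscle, had at most 3 and 1 counts per sample, Cox7b2 had at most 2, and no count fell on Cox8c in any sample. A count of 0 allows up to 0.0449 to 0.0603 CPM in the single samples, as counting error alone. These 4 genes did not pass the low-count filter, which left 89 members tested. Subunit c of the ATP synthase is made from 3 genes with the same mature protein, and here all of them were used. Atp5g1, Atp5g2 and Atp5g3 made up 25.1% ± 1.71, 42.0% ± 0.58 and 32.9% ± 2.12 of their summed level per length in controls and 27.9% ± 1.65, 40.1% ± 1.39 and 32.0% ± 2.95 in Dot1l-cKO. Of these shares that of Atp5g1 depends most on length, since its level in controls is 127.6 CPM per kb with its shortest principal transcript and 16.1 with its longest.

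Total counts ranged from 54202349 to 66556034 per sample, and the members together held between 0.857% and 1.13% of them. Over the whole gene, Dot1l had 37.3 ± 4.04 CPM in controls and 39.4 ± 11.7 in Dot1l-cKO (log2 fold change 0.08, edgeR adjusted p = 0.864). Dot1l-cKO replicates 1 to 5 had 42.3, 20.1, 39.6, 43.4 and 51.7 CPM. Replicate 2 alone lay below every control, the controls ranging from 31.4 to 41.5 CPM. The gene-level count thus gave no check of the labels. Reads of single exons were not examined, and the reason was not tested. Replicates 2 and 3 of both groups carry the number 57 in their column headers, whose meaning is not stated, and had at most 0.492% of counts on mitochondrial rRNA, against at least 5.79% in the other 6 samples. Values within these 4 and in the remaining 6 samples are therefore given beside the results. Markers of other cell types differed in part: 7 of 7 microglial genes were increased (median log2 fold change 0.93, P2ry12 1.10, C1qa 1.04), and 6 of 7 when blocked by replicate number, where Aif1 had an edgeR adjusted p of 0.0730. Of 6 radial glial genes Vim, Fabp7 and Slc1a3 were increased, while Sox2, Hes5 and Nes had log2 fold changes of -0.38, -0.20 and -0.16, and Sox2 was called as decreased under the block (edgeR adjusted p = 0.00906). Gap43 of 6 neuronal genes was increased, 4 of the 6 were above 0, and Dcx and Map2 had -0.24 and -0.165 with no call. Ppp1r1b of 5 striatal genes was increased, while the other 4 were below 0 and the list median was -0.26. Of 8 dorsal telencephalic genes 4 were above 0 and 4 below, and Pax6 was decreased (-0.36). Neurod2 had 0.34 and was called as increased under the block (edgeR adjusted p = 0.0206), and Neurod6, Tbr1 and Eomes had 0.20, 0.20 and 0.03. All 6 ventral genes tested were below 0, and Lhx6 was decreased (-3.00). Summed levels of the ventral genes were 54.1 to 273.5 CPM in controls against 5.36 to 80.2 in Dot1l-cKO, and those of choroid plexus genes varied between 2.66 and 608 CPM over all samples. None of 7 erythroid, 5 endothelial, 3 pericyte, 5 choroid plexus, 5 meningeal and 3 muscle markers tested was called by edgeR at an adjusted p-value under 0.05, and none of them had an unadjusted p-value under 0.05. In the same order, their median log2 fold changes were -0.64, -0.44, -0.12, -1.87, -2.21 and -2.37 among samples numbered 57. In the remaining 6 samples they were 0.75, 0.25, 0.07, -0.25, 1.07 and -0.05. The first 3 lists and the meningeal genes thus changed sign between the sets. In bulk tissue fewer cells of a type and less RNA per cell cannot be told apart, and the part of these cell types in the values below was not tested.

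The first question was how many respiratory chain genes differ between Dot1l-cKO and control. Of the 89 tested members, 2 were increased in Dot1l-cKO (edgeR quasi-likelihood test, adjusted p-value under 0.05), namely Cox4i2 of complex IV and Uqcr11 of complex III, and none was decreased. Over all 17039 genes tested, 7.11% were called, 5.67% as increased and 1.44% as decreased. At an unadjusted p-value under 0.05 the members counted 9 higher (10.1%) and 1 lower (1.12%), against 13.3% higher and 7.30% lower over all genes tested. By DESeq2, Cox4i2 and Uqcr11 were called as increased and Cox5a as decreased, with 2011 calls among the 28447 genes fitted. Differences were small: 85 of the 89 members had a fold change between 0.9 and 1.2, and for 84 the 95% interval of the log2 fold change lay within ±0.5. The wider intervals belonged to Cox4i2, Cox6b2, Cox7a1, Ndufab1 and Uqcrq. The groups did not overlap for 3 members, Cox4i2, Uqcr11 and Ndufv3, in each of which every Dot1l-cKO sample lay above every control, while over all genes this was so for 6.17%. No member had every Dot1l-cKO sample below every control, against 2.17% of all genes.

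Signs were mostly positive. The log2 fold change was above 0 for 75 of 89 members, or 84.3%, against 48.8% of all genes tested, and the member median was 0.10 against -0.01. As a level, the members summed to 9019 ± 274 CPM in controls against 9639 ± 752 in Dot1l-cKO (SD, n = 5 each). The member median relative to the control mean, on the log2 scale, was 0.06, -0.03, -0.01, 0.02 and -0.05 in control replicates 1 to 5. The Dot1l-cKO medians, in the same order, were 0.07, 0.25, 0.06, 0.17 and -0.06. Replicates 2 and 4 of the Dot1l-cKO were thus highest, replicate 5 was below every control, and the groups overlapped. Replicate 2 was the highest of the Dot1l-cKO samples for 59 members and replicate 4 for 22. Of the 89 members, 74 exceeded all controls in Dot1l-cKO replicate 2 and 54 in replicate 4, but 12 in replicate 5, where 35 lay below all controls. Over all genes tested, between 18.0% and 27.4% exceeded all controls in a given Dot1l-cKO sample. The matching share of genes below all controls was not computed, so the count of 35 has no background beside it. Without Dot1l-cKO replicate 2 the member median was 0.05, with 66 members above 0.

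**Figure D2:**
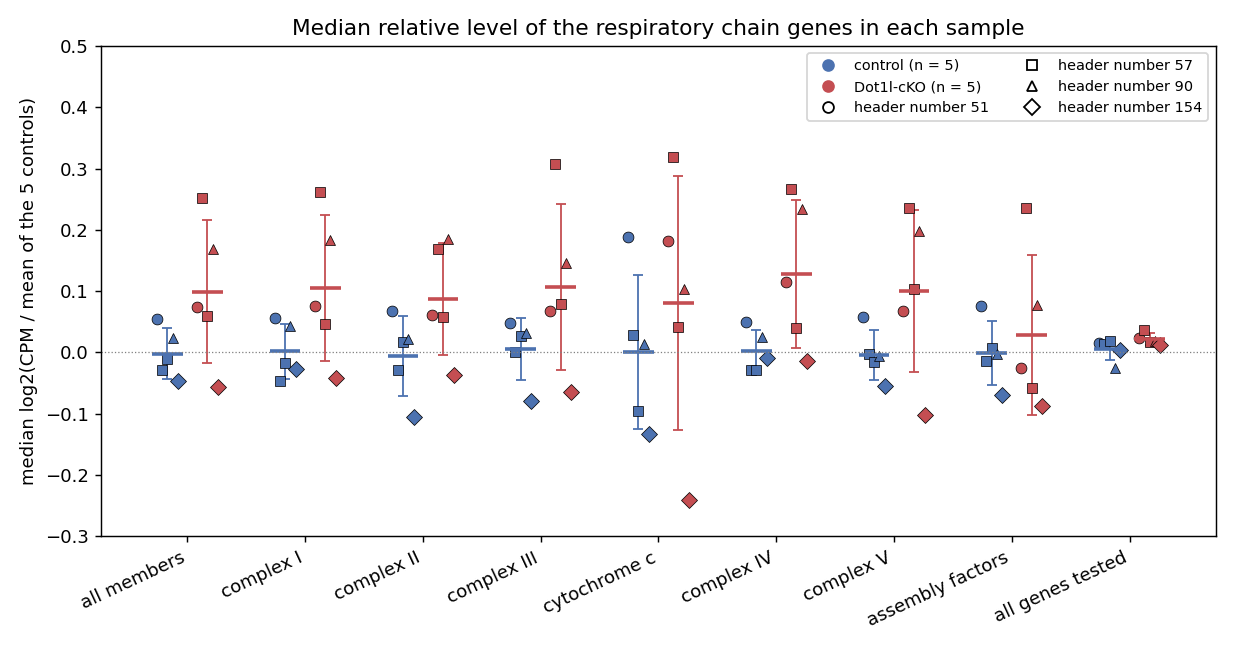
Median over the members of each complex of log2(CPM divided by the mean of the 5 controls) for each sample (points, marked by header number), with the group mean (bar) and SD (whiskers, n = 5). Dot1l-cKO replicates 2 and 4 reached 0.25 and 0.17 over all members, replicate 5 lay at -0.06, and the groups overlapped, while all genes tested stayed near 0.

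The difference between the groups was also read within the sets of samples. Of the Dot1l-cKO samples with header number 57, replicate 2 had a member median relative to the control mean of 0.25 and replicate 3 of 0.06. A difference between the sets and the high level of replicate 2 therefore cannot be told apart. In the 4 samples with header number 57 the member median was 0.19 with 81 of 89 members above 0, and in the other 6 samples it was 0.04 with 64 of 89. A difference between these medians was not tested. The sign was shared by both sets for 62 members, and 59 of them were positive in both. With 81 and 64 of 89 above 0, most members would share a sign even if the sets were unrelated. Agreement between the sets was not tested. With the replicate number as a block, the member median was 0.09 and 75 members were above 0. With that block and an offset for transcript length it was 0.03 against -0.03 for all genes, and 59 members were above 0.

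**Figure D3:**
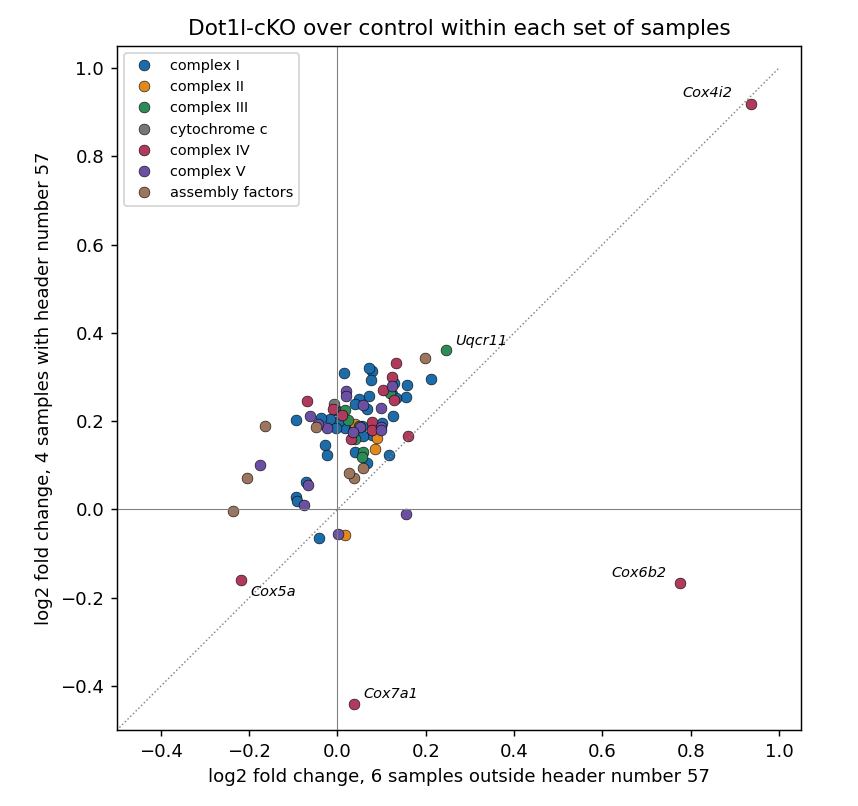
Log2 fold change of Dot1l-cKO over control for each tested member, fitted in the 6 samples outside header number 57 (horizontal axis) and in the 4 samples with it (vertical axis). Most points lie above the dotted line of equality (medians 0.04 and 0.19), Cox4i2 lies at 0.94 and 0.92, and the sparsely counted Cox6b2 and Cox7a1 differ in sign between the sets.

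Complexes I to V were then compared. Their median log2 fold changes lay close together, at 0.11 for complex I, 0.10 for complex II, 0.10 for complex III, 0.12 for complex IV and 0.09 for complex V. Among samples numbered 57 they were 0.20, 0.15, 0.20, 0.21 and 0.19, and in the remaining 6 samples 0.05, 0.06, 0.05, 0.08 and 0.02. In Dot1l-cKO replicate 2 the sample medians relative to the control mean, in the same order, were 0.26, 0.17, 0.31, 0.27 and 0.24. In replicate 3, also numbered 57, they were 0.05, 0.06, 0.08, 0.04 and 0.10. The assembly factors had a median log2 fold change of 0.04, with 5 of 8 above 0. A difference between complexes was not tested.

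**Figure D4:**
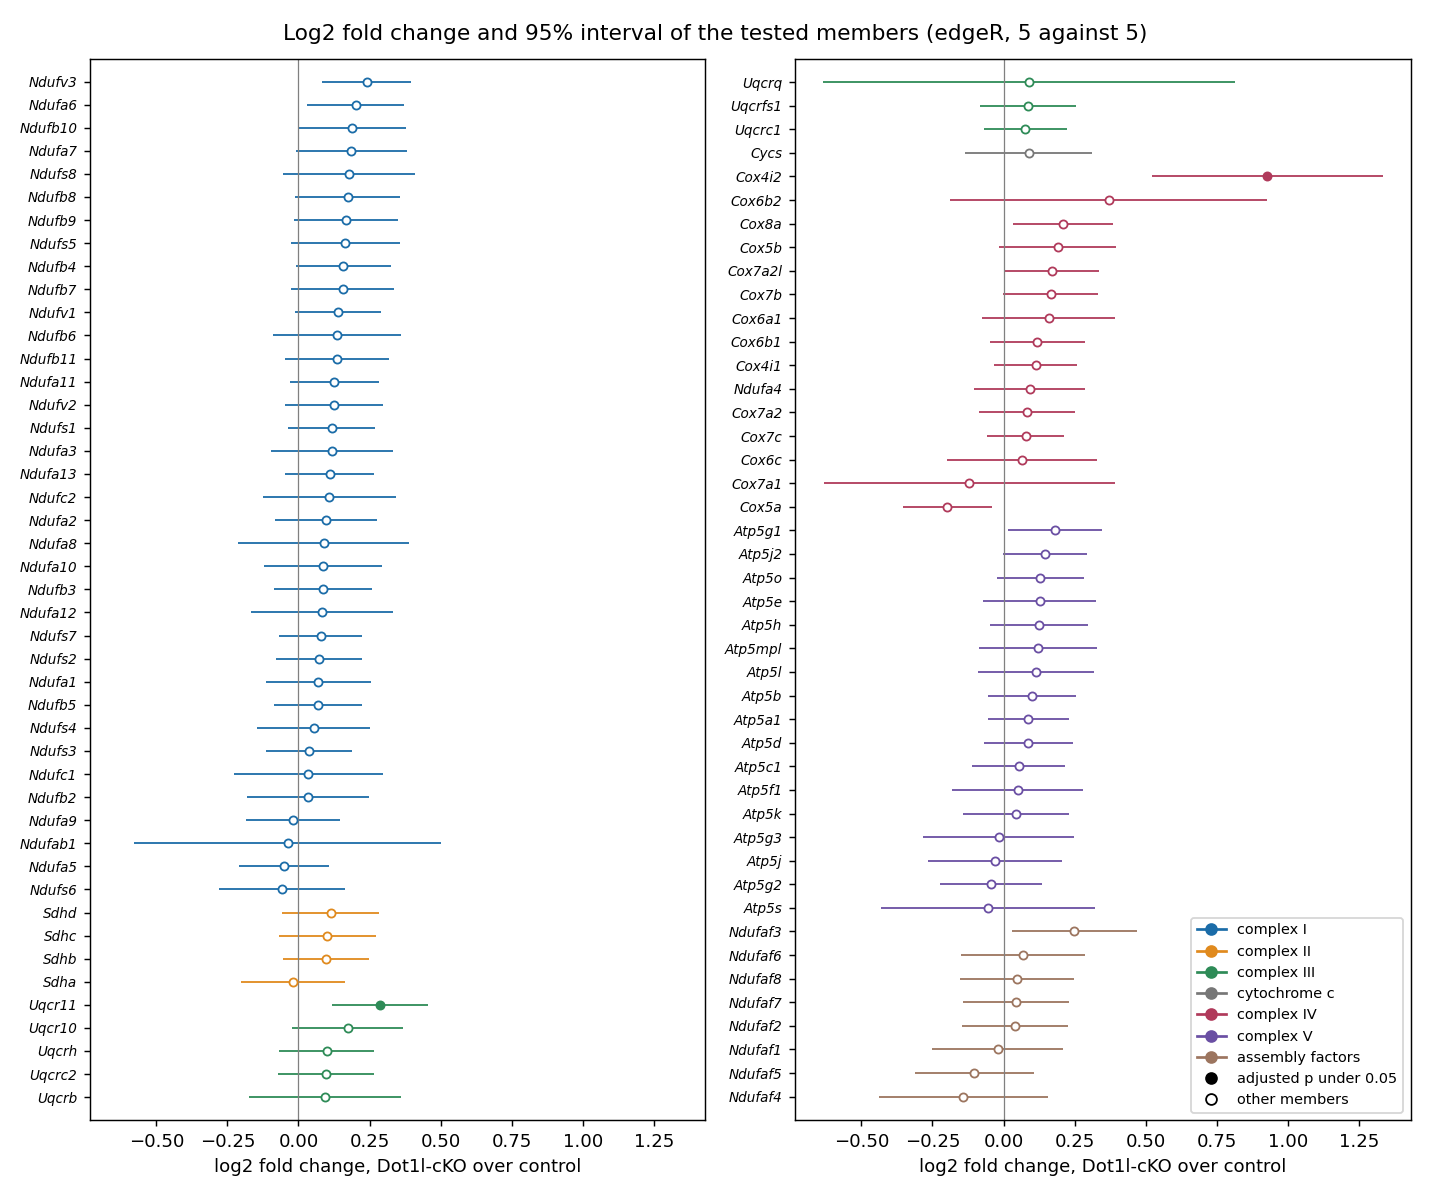
Log2 fold change of Dot1l-cKO over control (points) and 95% interval (lines) for the 89 tested members, coloured by complex, from edgeR over 5 against 5 samples. Filled points mark Cox4i2 at 0.93 and Uqcr11 at 0.29, and 75 points lie to the right of 0.

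Complex I, the NADH dehydrogenase, had 32 of 36 subunits above 0 and none called. All 7 nuclear-encoded core subunits, which form the parts that oxidize NADH and reduce ubiquinone, were above 0 with a median of 0.12, and 25 of 29 accessory subunits were, with a median of 0.11. Summed over complex I, levels were 2249 ± 54.9 CPM in controls against 2423 ± 206 in Dot1l-cKO. The highest log2 fold change was that of Ndufv3, a small accessory subunit of the NADH-oxidizing module. Per-sample values are listed in the order of replicates 1 to 5 here and for the members that follow. Ndufv3 had 52.0, 49.0, 51.9, 54.4 and 51.2 CPM across the controls. Across Dot1l-cKO the values were 56.9, 64.5, 57.7, 69.5 and 56.8 CPM. Every Dot1l-cKO value was above the highest control, with replicates 2 and 4 at the top. Its log2 fold change was 0.24 (SE 0.07), at an edgeR adjusted p-value of 0.0714. With upper-quartile scaling Ndufv3 passed the threshold, at an adjusted p-value of 0.0338. Ndufb9 had 90.9 ± 4.17 and 102.1 ± 12.1 CPM (0.17, edgeR adjusted p = 0.287). The lowest log2 fold change belonged to Ndufs6, an accessory subunit, with 31.4 ± 3.92 CPM in controls against 30.2 ± 3.02 in Dot1l-cKO (-0.06, 95% interval -0.28 to 0.16).

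Complex II, which links the citrate cycle to the chain, had 3 of 4 subunits above 0 and none called. Sdha, the flavoprotein that oxidizes succinate, had 186.5 ± 17.8 CPM in controls and 183.9 ± 15.03 in Dot1l-cKO (log2 fold change -0.02, 95% interval -0.20 to 0.16). Sdhb had 127.1 ± 6.77 and 135.8 ± 9.91 CPM (0.10, 95% interval -0.06 to 0.25). Sdhd, a membrane anchor, had the highest log2 fold change at 0.11, with a 95% interval of -0.06 to 0.28. All 3 intervals include 0.

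Complex III, the cytochrome c reductase, had all 8 subunits above 0. Uqcr11 encodes the smallest subunit of the complex and was increased. Uqcr11 (chromosome 10, 80402997 to 80406830, minus strand) had 73.6, 65.5, 72.1, 72.2 and 74.2 CPM across the controls. Dot1l-cKO animals had 82.9, 97.0, 77.3, 96.1 and 82.9 CPM. The groups did not overlap, and replicates 2 and 4 of the Dot1l-cKO were again highest. Its log2 fold change was 0.29 (SE 0.08), or 1.22-fold, at an edgeR adjusted p-value of 0.0470. The call was marginal: blocking on replicate number gave an adjusted p of 0.0668, and over the fits to all or all but 1 of the samples it ranged from 0.0265 to 0.120. With 1 sample left out the call was lost in 9 of 10 fits, all but that without Dot1l-cKO replicate 3, and the log2 fold change stayed between 0.24 and 0.33. It was 0.36 among samples numbered 57 and 0.25 in the remaining 6. The remaining subunits were below the threshold, among them Uqcrh with 143.6 ± 8.44 and 153.9 ± 13.9 CPM (0.10, 95% interval -0.07 to 0.27). The lowest log2 fold change was 0.08 for Uqcrc1, a core protein of the complex, with a 95% interval of -0.07 to 0.22.

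Uqcr11 lies 348.4 kb from Dot1l on chromosome 10, the chromosome of the floxed allele, of which controls carried 1 copy and Dot1l-cKO 2. Other members in that neighbourhood are Ndufs7, a complex I core subunit 498.4 kb away, and Atp5d, a subunit of the central stalk of complex V 609.4 kb away. Their log2 fold changes were 0.08 and 0.09, with edgeR adjusted p-values of 0.567 and 0.550. Of 109 genes tested within 1 Mb of Dot1l, a window chosen after the values were seen, 5 or 4.59% were called, against 7.11% of all genes. DNA linked to the floxed allele and loss of Dot1l cannot be told apart in this design.

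Cytochrome c carries electrons from complex III to complex IV, and its somatic form is encoded by Cycs. Cycs had 83.7, 74.9, 68.7, 74.1 and 67.0 CPM across the controls. The corresponding Dot1l-cKO levels were 83.3, 91.6, 75.6, 78.9 and 62.2 CPM. The groups overlapped over most of their range, and Dot1l-cKO replicate 5 was the lowest sample of all. The log2 fold change was 0.09 (SE 0.10, edgeR adjusted p = 0.685). It was 0.24 among samples numbered 57 and -0.01 in the remaining 6.

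Complex IV, the cytochrome c oxidase, had 13 of 15 tested subunits above 0 and held the member with the largest difference. Cox4i2 is the restricted isoform of subunit IV, known from lung and from the pericytes around brain vessels, and it was increased. Cox4i2 (chromosome 2, 152754173 to 152765037, plus strand) had 0.744, 0.579, 0.734, 0.638 and 1.00 CPM across the controls. Levels across Dot1l-cKO were 1.66, 1.33, 1.12, 1.51 and 1.42 CPM. Every Dot1l-cKO sample lay above every control, the nearest being Dot1l-cKO replicate 3 and control replicate 5. These levels rest on 33 to 100 counts per sample, 222 over the controls and 417 over the Dot1l-cKO. The log2 fold change was 0.93 (SE 0.19), or 1.90-fold, at an edgeR adjusted p-value of 0.0116, and of 0.0227 when blocked by replicate number. It was 0.92 among samples numbered 57 and 0.94 in the remaining 6, although within these smaller sets the edgeR adjusted p-values were 0.290 and 0.0678. Among samples numbered 57 only 1 of 17202 genes was called. Cox4i2 stayed under an adjusted p-value of 0.05 in the other 10 fits tried over all samples and in all 10 fits that left out 1 sample, with log2 fold changes between 0.85 and 1.06. Its share of the Cox4i level per length was 0.307% ± 0.0616 in controls and 0.543% ± 0.0789 in Dot1l-cKO.

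The common isoform Cox4i1 had 252.0, 235.1, 240.0, 247.6 and 250.4 CPM across the controls. Across Dot1l-cKO the values were 255.3, 288.0, 242.5, 284.6 and 254.3 CPM, so that replicates 2 and 4 were high and the others overlapped the controls. Its log2 fold change was 0.11 (SE 0.07, edgeR adjusted p = 0.379). Since pericytes are a known source of Cox4i2, their markers were read beside it: Pdgfrb, Rgs5 and Kcnj8 had log2 fold changes of 0.17, 0.00 and 0.01, and their summed level ranged from 63.3 to 97.2 CPM in controls and from 59.6 to 113.6 CPM in Dot1l-cKO. Endothelial markers had a median of -0.04. Pericyte and endothelial medians were -0.12 and -0.44 among samples numbered 57, and 0.07 and 0.25 in the remaining 6. Microglial markers had a summed level of 36.7 to 64.0 CPM in controls and 75.9 to 111.8 CPM in Dot1l-cKO, without overlap, like Cox4i2, and their part in it was not tested. Ndufa4l2, which the choice of members left out and which is likewise known from pericytes, had 1.81 ± 0.433 and 2.45 ± 0.428 CPM (log2 fold change 0.43, edgeR adjusted p = 0.234).

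**Figure D5:**
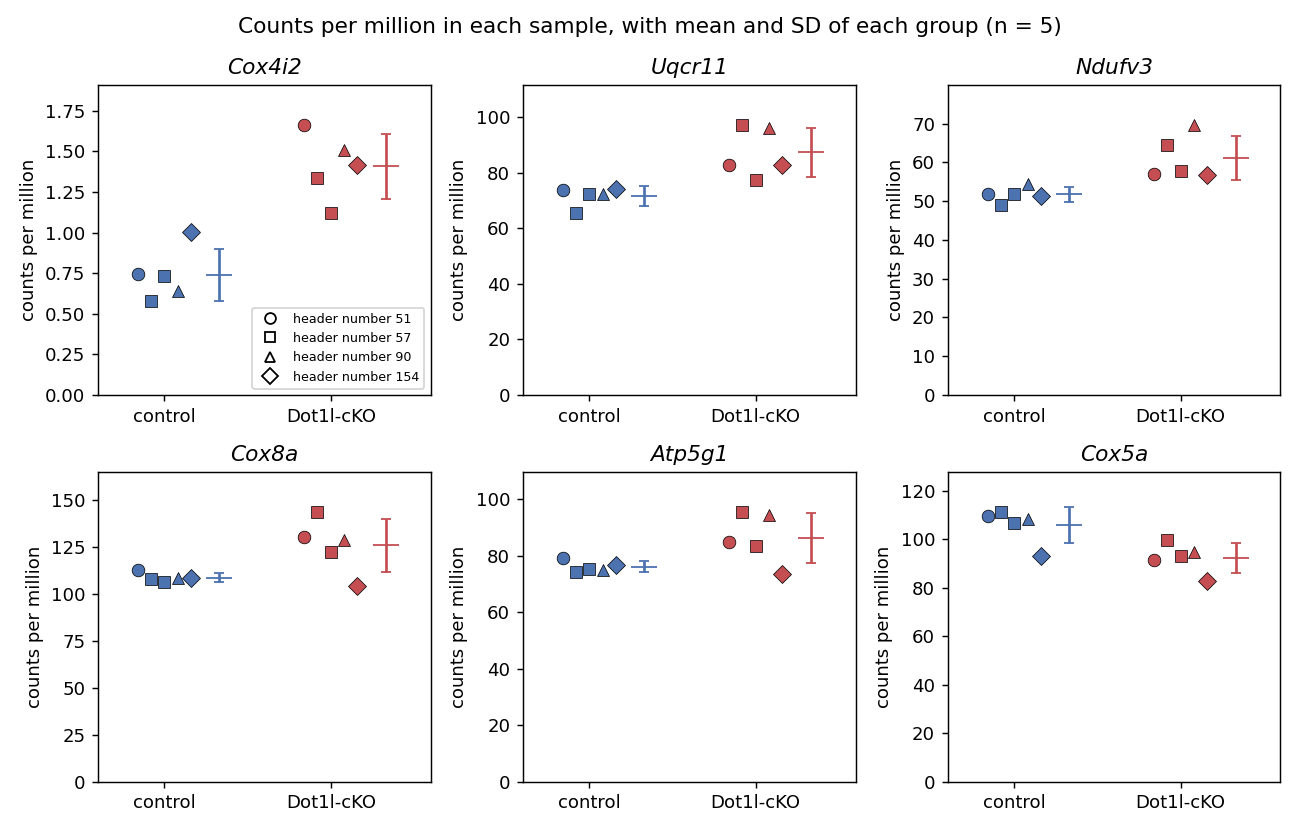
CPM in each sample (points, marked by header number) with group mean and SD (n = 5) for 6 members, each axis starting at 0. Control and Dot1l-cKO did not overlap for Cox4i2, Uqcr11 and Ndufv3, which were higher in Dot1l-cKO, whereas Cox8a, Atp5g1 and Cox5a overlapped through replicate 5 of either group.

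Cox5a, subunit Va of complex IV, had the lowest log2 fold change of the 89 members. Its values were 109.8, 111.2, 106.9, 108.5 and 93.2 CPM across the controls. Dot1l-cKO animals had 91.3, 99.8, 92.9, 94.8 and 82.8 CPM. Control replicate 5 lay within the Dot1l-cKO range, and the remaining controls lay above it. This gave a log2 fold change of -0.20 (SE 0.07, edgeR adjusted p = 0.136). Blocking on replicate number called Cox5a as decreased (edgeR adjusted p = 0.0434). Its log2 fold change was -0.16 among samples numbered 57 and -0.22 in the remaining 6. Cox5b, a separate subunit of the complex, had a log2 fold change of 0.19 (95% interval -0.02 to 0.40).

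Cox8a, the common isoform of subunit VIII, had 112.6, 108.3, 106.3, 108.4 and 108.6 CPM across the controls. The corresponding Dot1l-cKO levels were 130.4, 143.7, 122.7, 128.6 and 104.2 CPM. The first 4 of these exceeded every control, while replicate 5 was below all of them. Its log2 fold change was 0.21 (SE 0.08, edgeR adjusted p = 0.162), and without Dot1l-cKO replicate 5 it passed the threshold with an adjusted p-value of 0.0458. Among samples numbered 57 it was 0.33, and in the remaining 6 it was 0.13. Of the other common isoforms, Cox6a1, Cox6b1, Cox7a2 and Cox7b had log2 fold changes of 0.16, 0.12, 0.08 and 0.17, none of them called. The restricted isoforms Cox6b2 and Cox7a1, with 52 to 128 and 17 to 38 counts per sample, had 0.37 (95% interval -0.19 to 0.93) and -0.12 (95% interval -0.63 to 0.39). For Cox6a2, Cox7b2, Cox8b and Cox8c both groups stayed at or below the counts that 0 allows, and no fold change is given.

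Complex V had 13 of 17 members above 0 and none called, and its summed level was 3769 ± 124 CPM in controls against 4003 ± 302 in Dot1l-cKO. Atp5b had 1229, 1128, 1138, 1139 and 1122 CPM across the controls. Levels across Dot1l-cKO were 1184, 1336, 1209, 1333 and 1109 CPM, where replicates 2 and 4 exceeded all controls and replicate 5 was below them. Atp5b thus had a log2 fold change of 0.10 (SE 0.07, edgeR adjusted p = 0.471). Atp5g1 had the highest log2 fold change of the complex. It had 79.1, 74.1, 75.2, 75.0 and 76.8 CPM across the controls and 84.7, 95.4, 83.5, 94.3 and 73.5 CPM across Dot1l-cKO, where again the first 4 exceeded the controls and replicate 5 did not. This gave 0.18 (SE 0.08, edgeR adjusted p = 0.197), with 0.28 among samples numbered 57 and 0.12 in the remaining 6. The other 2 genes of subunit c, Atp5g2 and Atp5g3, had -0.04 (95% interval -0.23 to 0.14) and -0.02 (95% interval -0.28 to 0.25), and both turned positive with upper-quartile scaling. Atp5s, which is named for the ATP synthase but is not a subunit of the core enzyme, had the lowest value at -0.05 (95% interval -0.43 to 0.32) on 193 to 314 counts per sample.

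The assembly factors of complex I had 5 of 8 members above 0 and none called. Ndufaf3 had the highest log2 fold change, with 20.6, 19.5, 18.1, 22.6 and 24.1 CPM across the controls and 24.6, 24.8, 22.4, 29.5 and 23.5 CPM across Dot1l-cKO. The groups overlapped between 22.4 and 24.1 CPM. This gave 0.25 (SE 0.10, edgeR adjusted p = 0.184). Ndufaf4 had the lowest at -0.14 (95% interval -0.44 to 0.16), and Ndufaf2 had 0.04 (95% interval -0.15 to 0.23). Of 32 other assembly factors of the chain, none was called by edgeR, 2 were higher at an unadjusted p-value under 0.05, none was called by DESeq2, and their median was 0.03.

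The sets of samples differed from each other in a few members more than the genotypes did. With header number 57 as a term beside genotype, 7 of 89 members were called for it, against 11.4% of all genes. The complex III subunit Uqcrq was higher by 0.98 on the log2 scale in the samples with header number 57, and the acyl carrier protein Ndufab1 by 0.79. Ndufa8, Ndufc1, Atp5g3 and Atp5j were higher by 0.40, 0.31, 0.33 and 0.28, and Cox6a1 was lower with -0.28. In the main fit, which has no such term, the genotype effect had a 95% interval of -0.64 to 0.81 for Uqcrq. For Ndufab1 it was -0.58 to 0.50, and these were the widest among well-counted members. Among samples numbered 57 and in the remaining 6 the log2 fold changes were 0.13 and 0.06 for Uqcrq, and 0.03 and -0.09 for Ndufab1.

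Genes that act around the chain were read beside it. Of 13 regulators of respiratory gene transcription, 11 had a log2 fold change below 0, and the median was -0.12. The median was -0.08 among samples numbered 57, with 2 genes above 0, and -0.06 in the remaining 6, with 5 above 0. Of the 13 regulators 1 was decreased. This was Gabpb1, a subunit of GABP, with 46.9, 45.6, 43.1, 45.7 and 42.5 CPM across the controls. Across Dot1l-cKO the values were 36.1, 39.4, 34.7, 37.2 and 34.0 CPM, all below the lowest control. The log2 fold change was -0.30 (SE 0.06, edgeR adjusted p = 0.0139), and it was -0.24 among samples numbered 57 and -0.34 in the remaining 6. Its DNA-binding partner Gabpa had 87.1 and 84.3 CPM on average (-0.05, edgeR adjusted p = 0.804), and Nrf1 had 82.3 and 75.8 CPM (-0.12, edgeR adjusted p = 0.359). The coactivator Ppargc1a had 7.85 and 9.47 CPM (0.27, edgeR adjusted p = 0.469). Members with NRF1 letters in the promoter had a median log2 fold change of 0.10 and those without of 0.09. For the ETS letters these medians were 0.12 over 5 members and 0.09 over 68, and for the YY1 letters 0.05 over 10 and 0.10 over 63.

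Of the respiratory chain genes of mitochondrial DNA, 12 of 13 were tested, none was called by edgeR or DESeq2 and none had an unadjusted p-value under 0.05 in edgeR. Their median log2 fold change was -0.02. Summed over these genes, levels ran from 2694 to 3640 CPM in controls and from 2204 to 4460 CPM in Dot1l-cKO, where replicates 1 and 4 marked the extremes. Counts were spread unevenly over these genes, with 2165 CPM on mt-Co1 and 1.67 CPM on mt-Co2 in controls, so that these sums mostly follow a few genes. In the citrate cycle none of 13 genes was called and the median was 0.04, with 2 genes at an unadjusted p-value under 0.05 and none called by DESeq2. Among 76 mitochondrial ribosomal proteins tested none was called, 2 had an unadjusted p-value under 0.05, DESeq2 called 1, and the median was 0.02. Cyc1 and Hccs, which encode cytochrome c1 and the enzyme that attaches heme, had -0.03 and 0.04 with no call. Glycolysis had a median of 0.12 over 17 genes, 13 of them above 0 and 2 increased. These were Eno2, the neuronal enolase, with 16.5 ± 1.58 and 24.2 ± 1.49 CPM (log2 fold change 0.55, edgeR adjusted p = 0.00266), and Aldoc, the brain aldolase, with 233.5 ± 31.0 and 306.2 ± 31.1 CPM (0.39, edgeR adjusted p = 0.0463). With 1 sample left out a single glycolysis gene was increased, unless that sample was control replicate 3 or 5. Blocked by replicate number, Ldhb (-0.39) was called as decreased and the citrate cycle gene Suclg2 (0.32) as increased, with edgeR adjusted p-values of 0.0386 and 0.0430. Of the cell type markers given above, 3 of 6 radial glial and 1 of 6 neuronal genes were increased in the same samples, with list medians of 0.13 and 0.11, and their part in these values was not tested.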

How the data were processed

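RNA-seq counts of 10 dorsal telencephalon samples, 5 control and 5 Dot1l-cKO, were used. Members, gene lists and tests were chosen with earlier results of these data known. According to the study's methods and processing notes, the authors made stranded libraries from total RNA depleted of ribosomal RNA, trimmed reads with Trim Galore 0.2.8, mapped them to mm10 with TopHat2 2.0.9 and counted them by strand with HTSeq 0.6.0. The deposited whole-number counts per gene are raw. The authors' second tables hold a signal, namely counts divided by DESeq2 1.6.1 size factors, and served for 1 alternative.

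Genes were kept with filterByExpr, scaled with TMM and tested with edgeR 4.0.16 (R 4.3.3) without covariate, with Benjamini-Hochberg adjustment over all genes tested and a threshold of 0.05. Standard errors were derived from the F statistic. CPM are counts scaled to the TMM-adjusted library total. Coordinates and transcript lengths follow GENCODE on GRCm38, in which 42462 of 43629 identifiers had a symbol. Identifiers without a symbol held 0.268% of counts. The method was tested on simulated data. Replicates differed beyond sampling noise (chi-square per degree of freedom at least 23.4). Samples with the same replicate number deviated together (correlations 0.131 to 0.597), so the numbers were taken to pair samples, and blocked values are given where a call changed. The Dot1l-cKO sample closest to a control had the same number for controls 1 and 4, but not for 2, 3 and 5. Samples of the same number also share a header number, so the pairing is not established. The header number was not explained by the labels.

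Named are members called, those with the highest level per length and the highest and lowest log2 fold change of each complex, all isoform pairs, members below the filter, and genes called in other lists (up to 5 a list). Cox8a, header-number genes, cell type markers, Cox5b, Ndufs7, Atp5d, Ndufa4, Atp5a1, Atp5h, Gabpa, Nrf1, Ppargc1a, Ndufa4l2 and mitochondrial genes were named after their values were seen. Same-strand neighbours overlap Ndufb8 and Atp5g2, and 11 pseudogenes with member-like names held at most 145 counts each over all samples. Reads shared with unlisted copies were not analysed here. Alternatives were no filter, at least 10 counts in every sample, DESeq2 size factors, upper-quartile factors, removal of mitochondrial genes, DESeq2 1.42.0, limma 3.58.1 on log2(normalised count + 1), the replicate block, header number 57 as a term, the block with a length offset, a threshold of 0.01 and each sample left out. Fits within header-number sets were added after seeing the data. Reads carry no molecular identifiers, so intervals of counts cover counting error only. P-values measure the spread between these animals. One item of the genotype is not reported here.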

Additional observations from a re-analysis of the deposited data

Results flagged for a closer look

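Of 70 groups of 5 samples examined, namely the named members and the sample medians of each complex in either genotype, 5 had 1 sample set apart by more than Dixon's limit for the gap to the nearest sample divided by the range (0.71 for 5 samples). Chance alone flags about 1 in 20 groups. Uqcr11 was lowest in control replicate 2, with a ratio of 0.768. Cox5a was lowest in control replicate 5, with 0.774. Atp5b was highest in control replicate 1, with 0.833. Sdha was highest in Dot1l-cKO replicate 3, with 0.751. Cox6b2 was lowest in Dot1l-cKO replicate 2, with 0.768. For the Uqcr11 log2 fold change the edgeR adjusted p-value was 0.120 without control replicate 2, and for the Cox5a log2 fold change it was 0.0529 without control replicate 5.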

How the results depend on the processing

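The count of increased members was 2, and 1 (Cox4i2) with no filter, DESeq2 size factors, mitochondrial genes removed, limma, the replicate block and the block with a length offset. It was 3 with upper-quartile factors, which added Ndufv3. It was 0 at an adjusted p-value under 0.01 and in either header-number set, and 1 to 2 with a sample left out. Over all genes, the 4 samples with header number 57 gave 1 call among 17202, so a count of 0 there was nearly fixed beforehand. The other 6 samples gave 745 calls among 17294 genes. Decreased members were 0, and 1 (Cox5a) with DESeq2, the replicate block and the block with length offset. Over all genes, the main fit called 1212, the replicate block 1604, the block with length offset 1620 and the header-number term 1790. Upper-quartile factors called 1371, DESeq2 2011, limma 1215, DESeq2 size factors 1181, removal of mitochondrial genes 1202 and no filter 973. Cox11, of the other assembly factors, was the 1 decreased with the block and length offset. The 1 decreased regulator became 0 at 0.01 and within either header-number set. In the citrate cycle 1 gene, Suclg2, was increased with the replicate block and with the header-number term. Increased glycolysis genes were 1 instead of 2 with no filter, DESeq2 size factors, limma, the 6 samples outside header number 57 and the 0.01 threshold, 0 within header number 57, and 1 to 2 with a sample left out. Decreased ones were 1, Ldhb, with DESeq2 size factors, mitochondrial genes removed, DESeq2, limma, the block, the header-number term and the block with length offset, and 0 to 2 with a sample left out. Of the mitochondrial ribosomal proteins 1, Mrpl48, was increased with upper-quartile factors, DESeq2 and the header-number term, and 0 to 1 with a sample left out.

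Medians moved beyond the spread between samples within header number 57, to 0.189 for all members, 0.204 for complex I, 0.215 for complex IV and 0.186 for complex V, and the median log2 fold change, complex II, was 0.0186 with the block and length offset. Upper-quartile factors turned Sdha (0.0344), Atp5s (0.0002), Atp5g2 (0.0095) and Atp5g3 (0.038) positive, and the block with length offset turned Ndufaf2 (-0.0174). Within header number 57 Atp5s (0.0997), Cox6b2 (-0.166), Atp5g2 (0.0096) and Atp5g3 (0.0549) changed sign, and within the other 6 samples Sdha (0.0171), Cycs (-0.0087), Ndufaf2 (-0.0485), Cox7a1 (0.0375) and Cox7a2 (-0.0095). With a sample left out, the ranges that crossed 0 were -0.0881 to 0.0071 for Atp5g2, -0.0826 to 0.0416 for Atp5g3, -0.140 to 0.0278 for Atp5s, -0.0088 to 0.0829 for Ndufaf2, -0.122 to 0.0006 for Ndufs6 and -0.0735 to 0.021 for Sdha. The causes were not tested. Of the 2 calls among members, at the 0.05 threshold Cox4i2 was lost in none of the alternatives over all samples or with 1 left out and Uqcr11 in 6 of 10 and 9 of 10, and the block changed no other call among named members than those of Uqcr11 and Cox5a. With this spread between 5 animals per group, changes under about 0.2 on the log2 scale were mostly within the intervals.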
